A study of Mus musculus with 3 samples.

Results

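Sites of c-FOS in 3 stretches of the mouse genome that were named for secreted invasion proteases are described here: the matrix metalloproteinase (MMP) cluster with Mmp13, Mmp12, Mmp3, Mmp1a and Mmp10, the surroundings of Mmp9, and the surroundings of Plau. A peak, meaning an interval in which chromatin immunoprecipitation with sequencing (ChIP-seq) found an excess of reads, was taken as a member if its midpoint fell on mm9 chromosome 9 between 7.20 and 7.70 Mb, chromosome 2 between 164.71 and 164.83 Mb, or chromosome 14 between 21.60 and 21.72 Mb. This gave 8 of the 15011 listed peaks: 2 in the MMP cluster window, 4 in the Mmp9 window and 2 in the Plau window. No window was without a peak.

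The 2 c-FOS ChIP samples, made with a rabbit monoclonal antibody, and the 1 input sample, which had no antibody, came from ASZ001, an established mouse basal cell carcinoma line. All 3 carried RasV12, an activated Ras, together with a knockdown of the TGF-beta receptor TGFbR1 by shRNA, had been given Dox and 4OHT, and were crosslinked on day 6 after induction. They shared genotype and treatment, so the windows can be set against the rest of the peak list but not against another condition. There is 1 list, how the samples were combined in it is not stated, and it holds only positions, with no height, score, read depth or replicate, so there is no replicate error, peak strength is unknown, and a window without further peaks is one in which none was listed at an unknown depth. RNA of these proteases was not analysed here.

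As background, matrix metalloproteinases are zinc enzymes that are secreted or held at the cell surface as inactive precursors and digest collagens and other matrix proteins. Plau encodes urokinase, a serine protease that turns plasminogen into plasmin, and plasmin can in turn activate some of these precursors. c-FOS pairs with JUN proteins to form the transcription factor AP-1, whose preferred site reads TGAGTCA on one strand and TGACTCA on the other. A human collagenase promoter was among the first in which such a site was characterised, and these proteases are known for their part in tumour invasion and wound repair in skin.

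The gene starts of the MMP cluster carry such sites in sequence, and they are shown because an AP-1 motif close before the start is shared by the 5 cluster members. The promoters are those of RefSeq on GRCm38.p6 and each spans 250 bases before to 50 after a listed gene start. Entries were found for 5 of the 7 genes (Mmp13, Mmp12, Mmp3, Mmp1a and Mmp10). There was no entry for Mmp9 and Plau. The 100 bases before each start are printed 5′ to 3′ on the gene's strand, with the AP-1 motif TGANTCA in capitals. The first 6 belong to members, and Mmp1b, the duplicate of Mmp1a, is given for comparison. GRCm38 coordinates were not joined to the mm9 peaks, so no promoter here is said to lie under a peak.
Mmp13, chr9:7272414-7272513, plus strand: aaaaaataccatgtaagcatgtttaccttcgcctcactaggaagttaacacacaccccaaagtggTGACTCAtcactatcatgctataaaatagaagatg
Mmp12, second listed start, chr9:7347274-7347373, plus strand: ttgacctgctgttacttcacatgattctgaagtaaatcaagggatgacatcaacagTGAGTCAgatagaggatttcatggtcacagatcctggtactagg
Mmp12, first listed start, chr9:7344297-7344396, plus strand: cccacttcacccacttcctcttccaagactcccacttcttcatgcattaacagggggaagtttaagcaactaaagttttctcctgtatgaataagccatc
Mmp3, chr9:7445722-7445821, plus strand: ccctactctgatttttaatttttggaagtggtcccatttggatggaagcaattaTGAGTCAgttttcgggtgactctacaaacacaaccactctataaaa
Mmp10, chr9:7502242-7502341, plus strand: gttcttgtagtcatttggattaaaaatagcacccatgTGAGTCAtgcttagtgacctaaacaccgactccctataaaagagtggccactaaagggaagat
Mmp1a, chr9:7464041-7464140, plus strand: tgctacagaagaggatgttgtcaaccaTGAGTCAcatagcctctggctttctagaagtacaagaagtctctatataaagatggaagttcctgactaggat
Mmp1b, chr9:7388027-7388126, minus strand: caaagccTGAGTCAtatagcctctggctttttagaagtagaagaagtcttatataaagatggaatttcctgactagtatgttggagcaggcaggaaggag

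An AP-1 motif was found in 5 of the 6 member promoters, whereas 7.81% of the 32851 promoters in the table held one. All 5 genes thus had at least 1, against 8.97% of all genes, a count added after the data were seen. The 5 genes belong to 1 family and 1 cluster, so their promoters are not independent of each other. Both strands were searched, and 0 of the member matches overlapped another motif searched. In each of the 5 promoters the motif lay within the 100 bases before the start, a placement shared by 2.73% of all promoters. Its first base was at position -35 in Mmp13, -44 in Mmp12, -46 in Mmp3, -63 in Mmp10 and -73 in Mmp1a, counted back from the base before the start as -1. Mmp13, a collagenase, read TGACTCA, and Mmp12 (macrophage elastase), Mmp3 and Mmp10 (both stromelysins) and Mmp1a (a collagenase) read TGAGTCA. All 5 therefore had the same 7 letters on one strand or the other, the form taken by 65.6% of the 2718 matches in the whole table. The Mmp12 promoter without the motif belongs to the first of its 2 listed starts.

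These promoters were also searched, on both strands, for TATAAA, the letters of the TATA box that helps to position the start of transcription. It was present in 5 of the 6 member promoters and in 13.6% of all promoters, and in every case it followed the AP-1 motif, with 12 bases between them in Mmp13, 27 in Mmp10, 32 in Mmp3, 38 in Mmp1a and 41 in Mmp12. Its first base was at -28 in Mmp1a, -29 in Mmp10, -16 in Mmp13, -7 in Mmp3 and 5 bases into the transcript in Mmp12, so its place relative to the listed start varied. The Mmp12 match thus lay after the listed start and not before it, and its strand was not recorded. An AP-1 motif within the last 100 bases together with TATAAA anywhere was found in 174 promoters of the table, or 0.530%. The motif AGGAAG, bound by ETS factors that often act beside AP-1, occurred in 4 of the 6 member promoters and in 35.4% of all. The AP-1-related motif TGACGTCA, to which CREB-type factors bind, occurred in 0 of the 6 and in 1.79% of all promoters.

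Of the other 5 genes that GRCm38 lists in the same cluster, 3 had an AP-1 motif: Mmp7 (matrilysin) at -63 in 1 of its 2 promoters, Mmp1b at -93, and Mmp20 (enamelysin, a tooth enamel protease) at -95 with the letters TGAATCA. Mmp8, the neutrophil collagenase, and Mmp27 had none in this window. In all, 8 of the 10 cluster genes held the motif. After the motif, Mmp1a and Mmp1b had 36 of 50 bases in common without gaps. The other 27 pairs of cluster promoters with the motif shared 7 to 21, with a median of 11. The spacing from the motif to TATAAA differed between promoters, so a low count without gaps does not show that promoters are unrelated.

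The same motif was looked for in the promoters of partners of these proteases. Plaur, the receptor that holds urokinase at the cell surface, had TGACTCA at -69. Of 6 inhibitor genes with an entry, Serpinb2, an inhibitor of plasminogen activators, was the 1 that had it, in both of its promoters (TGAATCA at -94 and -181, counted from 2 starts whose promoter windows overlap, so this is 1 site). Timp1, Timp2, Timp3 and Timp4, the tissue inhibitors of metalloproteinases, and Serpine2 had none, and neither did Mmp14, a membrane-bound activator of other metalloproteinases. No entry was found for Mmp2 and Plat. Among all genes 8.97% held the motif, so its absence from a gene is the common case, and these few genes do not set inhibitors apart. These matches are letters in a window and do not show binding.

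**Figure D1:**
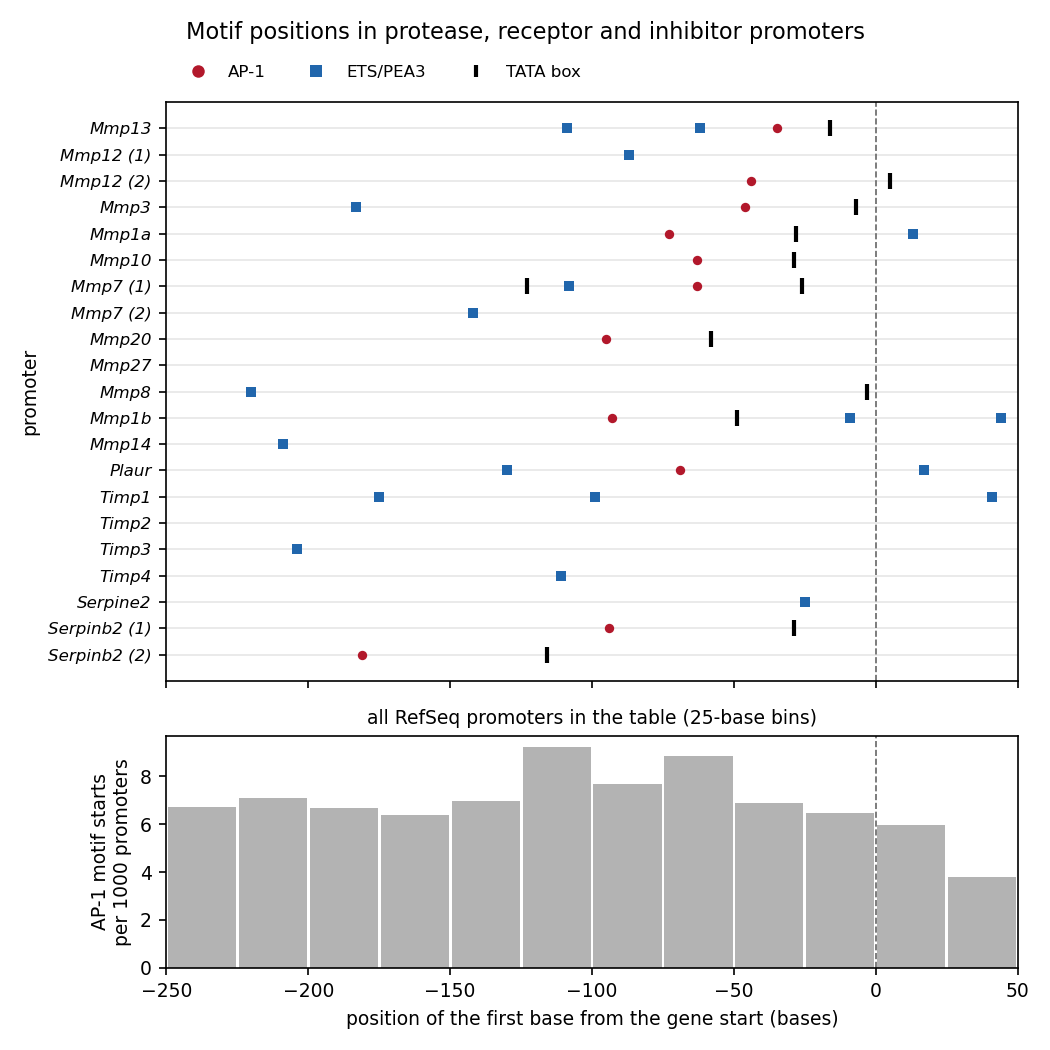
First base of each motif (x axis, bases from the gene start) in the promoters of the 7 proteases' available entries, other cluster genes, other proteases, the urokinase receptor and inhibitors (rows), with AP-1 motif starts per 1000 promoters over the whole table in 25-base bins below. The 5 member promoters with an AP-1 motif have it between positions -73 and -35, each followed by TATAAA, in Mmp12 after the gene start.

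Listed c-FOS peaks in the MMP cluster were few and far apart. The first peak lay on chromosome 9 from 7343171 to 7343363 and was 193 bp wide. The second lay from 7572420 to 7572527 and was 108 bp wide. They were separated by 229 kb, and neither had another listed peak within 100 kb.

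The first peak was the one close to a position given for a member gene. Its midpoint lay 3.3 kb beyond 7.34 Mb, the position at which Mmp12 was placed. The gene positions used for the cluster are approximate, given to 0.01 Mb and taken as mm9 without a check against an mm9 annotation, and every peak-to-gene distance rests on them. This distance is within their rounding, and whether the peak is before, at or inside Mmp12 was not resolved. Mmp12 encodes macrophage elastase, an enzyme named for the cells in which it was found and also known from skin.

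The other 4 cluster members had no listed peak near their positions. The nearest peak midpoint was 73.3 kb from Mmp13 (7.27 Mb), 106.7 kb from Mmp3 (7.45 Mb), 112.5 kb from Mmp1a (7.46 Mb) and 72.5 kb from Mmp10 (7.50 Mb). All of these distances exceed the rounding of the positions several times over. No peak was therefore listed at the positions given for Mmp13, Mmp3, Mmp1a and Mmp10, each of which holds an AP-1 motif in the RefSeq sequence above. Only 28.2% of the 21981 whole windows of 120 kb held at least 1 peak, so a stretch without a listed peak is the common case. Whether peaks are rarer near these 4 genes than near other genes with the motif was not tested.

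The second peak lay beyond the position given for Mmp10, on the side away from Mmp13. In GRCm38 the genes of the cluster follow each other in the order Mmp13, Mmp12, Mmp1b, Mmp3, Mmp1a, Mmp10, Mmp8, Mmp27, Mmp20 and Mmp7. The stretch beyond Mmp10 thus belongs to Mmp8, Mmp27, Mmp20 and Mmp7 if the order is the same in mm9. In GRCm38 the 100 bases before the gene start end at 7558428 for Mmp8, 7571395 for Mmp27 and 7628230 for Mmp20. For the first listed start of Mmp7 they end at 7692089. Positions of these genes in mm9 were not used, so which of them is nearest to the peak was not resolved.

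The MMP cluster window held 4.00 peaks per Mb, against 2.74 on chromosome 9 as a whole and 5.65 in the whole list. With 2 peaks, the exact Poisson 95% interval of its density ran from 0.484 to 14.4 per Mb, which covers both. At least 1 peak was found in 53.3% of the 5269 whole windows of 500 kb on chromosomes 1 to 19 and X, and at least 2 in 38.2%. On count alone, the cluster window was like a large share of the genome. These intervals take peaks as independent and reflect counting error alone. Since listed peaks cluster, they are too narrow.

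**Figure D2:**
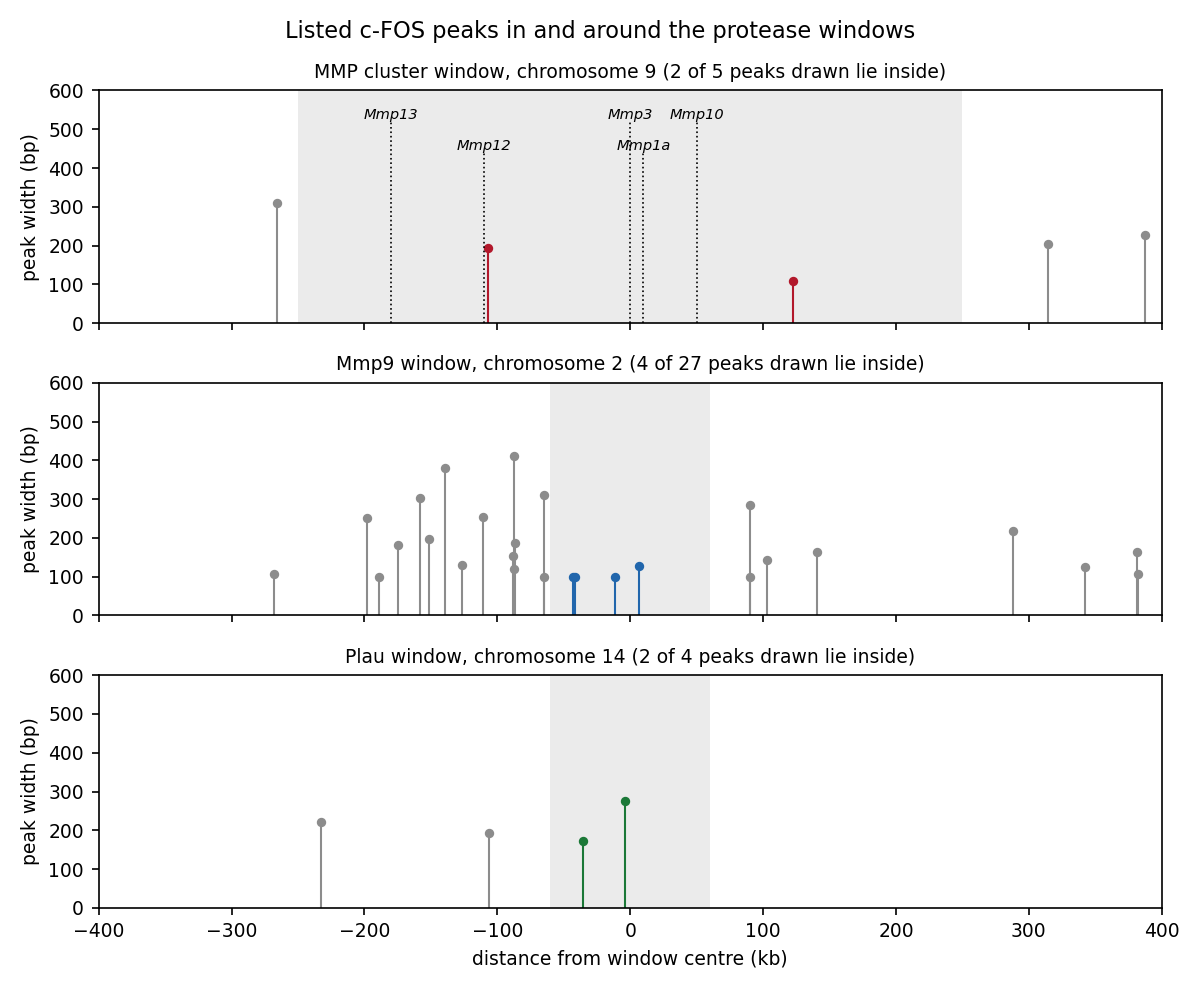
Listed c-FOS peaks within 400 kb of each window's centre, by distance from the centre (x axis, kb) and peak width (y axis, bp), with members coloured, other peaks grey, the windows shaded and approximate gene positions dotted. The MMP cluster window holds 2 peaks 229 kb apart, the Mmp9 window 4 narrow peaks beside a crowded stretch, and the Plau window 2 peaks, the wider near its centre.

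The Mmp9 window was the richest of the 3 in peaks, and all of them were narrow. Mmp9 encodes gelatinase B, which cleaves denatured collagen and basement membrane collagen. The first 2 peaks, on chromosome 2 from 164726960 to 164727057 and from 164728077 to 164728174, formed a pair with 1019 bp between them and lay 43.0 and 41.9 kb before the centre of the window. The third, from 164758141 to 164758238, lay 11.8 kb before the centre. The fourth, from 164776494 to 164776620, lay 6.6 kb after it.

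The centre of the Mmp9 window is not the gene start, and a position for Mmp9 within the window was not used here. In GRCm38 its protein-coding neighbours are Pcif1 and Zfp335 on one side and Slc12a5 and Ncoa5 on the other. The peaks can therefore be assigned to the window but not to Mmp9 or to one of its neighbours.

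The first 3 peaks of the Mmp9 window each measured 98 bp and the fourth 127 bp. A width of 98 bp is the smallest in the list and was shared by 10.7% of all peaks, and 31.1% of the list was at most as wide as the fourth. None of the 4 reached the list's median width of 158 bp. A smallest width shared by many peaks may come from the peak caller, and its part in these values was not tested.

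At 33.3 peaks per Mb (exact Poisson 95% interval 9.08 to 85.3), the Mmp9 window was 5.07 times as dense as chromosome 2 (6.58 per Mb) and 5.90 times as dense as the whole list. Of 21981 whole windows of 120 kb, 28.2% held at least 1 peak and 5.37% held at least 4. Denser sequence lay next to it. The 120 kb just before the window held 12 peaks with a median width of 192 bp (range 100 to 412 bp), and the 120 kb just after it held 4 with a median width of 153 bp (range 100 to 284 bp). None of these 16 flanking peaks had the minimum width of 98 bp, against 3 of the 4 peaks inside and 10.7% of the list. Just beyond the flank before the window, a peak of 98 bp lay at -189.38 kb from the window's centre. The flanks were chosen after the data were seen, and the difference in width was not tested. Widening the window by 50 kb on each side raised its count to 13 peaks, so the count depends strongly on where the limits are drawn.

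The Plau window held 2 peaks of ordinary to large width. One lay on chromosome 14 from 21624734 to 21624906 and was 173 bp wide. The other lay from 21655658 to 21655933 and was 276 bp wide, the widest of the 8 protease peaks, wider than 84.9% of the list. Its midpoint was 4.2 kb before the centre of the window, and the first peak was 35.2 kb before it. The gap between the 2 peaks was 30.8 kb.

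After the wider Plau peak no further peak was listed for 995 kb. Before the first there was a gap of 70.9 kb. The protein-coding neighbours of Plau in GRCm38 are Ndst2 and Camk2g on one side and Vcl and Ap3m1 on the other. As for Mmp9, the position of Plau within the window was not used here, so the peak near the centre was not assigned to its promoter.

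These 2 peaks stood in a sparse chromosome. Chromosome 14 had 109 listed peaks, or 0.871 per Mb, and the Plau window had 16.7 per Mb (exact Poisson 95% interval 2.02 to 60.2), 19.1 times the chromosome and 2.95 times the whole list. With 100 kb more on each side the density was 9.38 per Mb. Over chromosomes 1 to 19 and X, 15.0% of windows of 120 kb held at least 2 peaks. Among windows of chromosome 14 alone the share was 1.44%. Whether copy number or mappability of chromosome 14 enters this contrast was not tested.

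**Figure D3:**
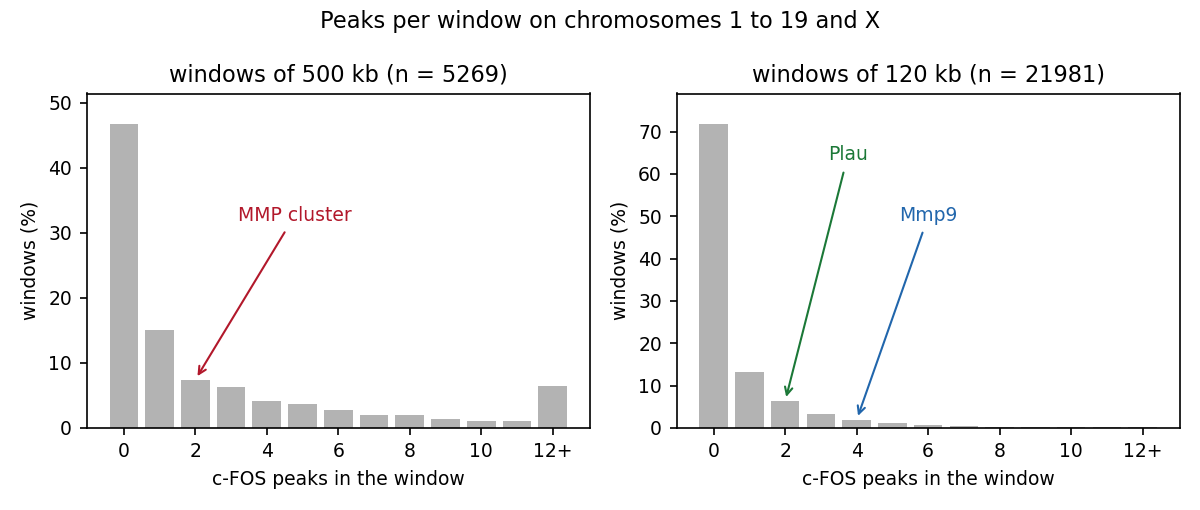
Share of whole windows (y axis, percent) by the number of c-FOS peaks they hold (x axis, 12 or more pooled), for 500 kb and 120 kb windows on chromosomes 1 to 19 and X. Most 120 kb windows are empty, while the Mmp9 window holds 4 peaks, a count reached by 5.37%, and the Plau window 2, reached by 15.0%. The MMP cluster window holds 2, reached by 38.2% of 500 kb windows.

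Width varied by window among the 8 protease peaks. Widths ranged from 98 to 276 bp with a median of 117.5 bp, against 158 bp in the whole list (quartiles 119 and 225 bp). Of the 8, 5 were narrower than the list's median and 3 were wider. The 3 wider ones were both Plau peaks and the peak near Mmp12. None exceeded 500 bp. Without the Mmp9 window, whose 4 peaks are neighbours in 1 stretch and not independent sites, the median of the other 4 was 183 bp.

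At short range few of the protease peaks had a neighbour. Only the pair in the Mmp9 window had one within 10 kb, making 2 of 8, whereas 48.7% of the list had one. No protease peak had a neighbour within 1 kb, compared with 24.9% of the list, although the pair's 1019 bp missed that distance by little. These counts rest on 8 peaks from 3 windows, and their difference from the list was not tested. The median distance to the nearest peak was 24.5 kb for the protease peaks and 10.7 kb for the list. Within 100 kb the 4 peaks of the Mmp9 window had 10 to 12 others and the Plau peaks 2 and 1. The 2 MMP cluster peaks stood farthest from any other, at 159 and 191 kb. Only 7.33% of the list was as far from its nearest neighbour as the first of them, and 6.23% as the second.

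**Figure D4:**
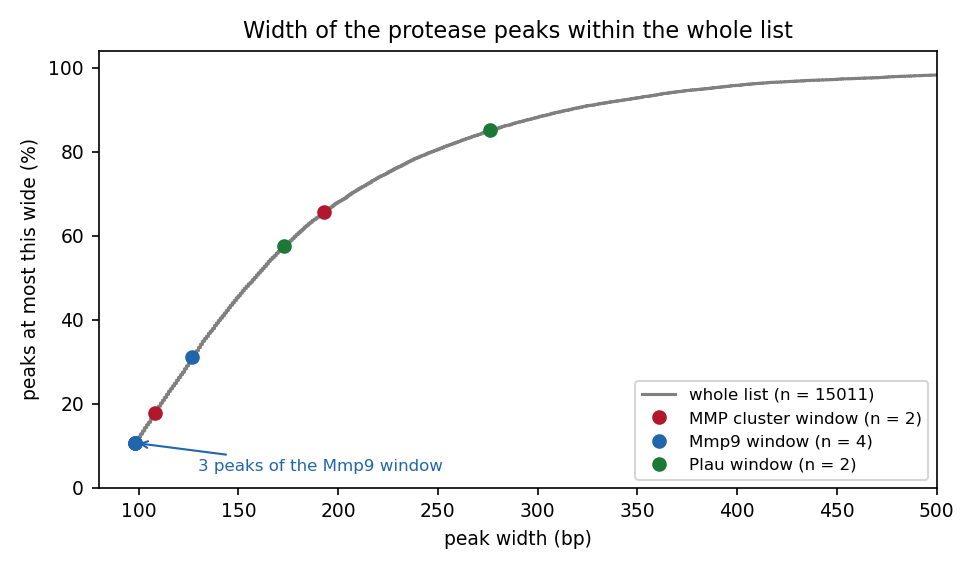
Cumulative share of the 15011 listed peaks (y axis, percent) by width (x axis, bp, shown up to 500 bp), with the 8 protease peaks marked on the curve by window. Of the Mmp9 window's 4 peaks, 3 sit at the minimum of 98 bp, the MMP cluster peaks at 108 and 193 bp, and the Plau peaks at 173 and 276 bp.

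The limits of the windows decided membership in some places. For the MMP cluster the nearest outside peaks lay 15.7 kb before and 64.1 kb after the limits (309 and 205 bp wide), while the nearest inside lay 143 and 128 kb from them. For Mmp9 the outside peaks were 4.66 kb before and 30.0 kb after (both 100 bp wide), and the inside ones 17.0 and 53.4 kb from the limits. For Plau the outside peaks were 46.3 and 931 kb away (194 and 307 bp wide), and the inside ones 24.8 and 64.2 kb.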

How the data were processed

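c-FOS ChIP-seq was carried out on 2 samples and an input on 1 sample of ASZ001 cells, grouped by their titles. Per the submitters' processing notes, the authors used Bowtie2, mm9 and MACS2 for alignment and peak calling. Tool versions, the calling threshold, how samples were combined and how the input entered are not given in the sources used. The file the authors deposited has 3 columns (chromosome, start, end), 1 list for all samples, and other values (score, height, depth) were not analysed here. Of its peaks, 0 lay beyond mm9 chromosome ends and 55 beyond mm10 ends (lengths from GenomeInfoDb 1.38.1, R 4.3.3). Coordinates are printed 1-based.

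Windows, gaps, widths and motif matches were computed with scipy 1.17.1, pandas 2.3.3 and numpy 2.4.6 under Python 3.11.15, and figures with matplotlib 3.10.9. The functions were tested on simulated data with planted peaks and motifs. Background windows were laid end to end from position 1, assembly gaps included. No hypothesis test was run, because there is 1 list without replicates. All 7 genes and every peak in their windows are named. The genes, windows and lists were chosen with earlier results of these data known; TATAAA, the flanks of the Mmp9 window and the comparison of bases after the motif were added after the data were seen. The names and order of genes come from a RefSeq table of GRCm38.p6, which also places Mmp9 on chromosome 2, Plau on chromosome 14 and the cluster on chromosome 9. An mm9 annotation and sequence were not used here, and 1 gene of the wider list is not reported here.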

Additional observations from a re-analysis of the deposited data

How the results depend on the processing

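Several values moved with the settings. Widening by 50 kb on each side gave 13 peaks for Mmp9, and widening by 100 kb gave 19 for Mmp9 and 4 for the MMP cluster. Keeping only peaks wider than the median left 1 peak in the MMP cluster window and 0 (0 per Mb) in the Mmp9 window. Among windows of the own chromosome only, the share with at least as many peaks was 28.6% for the MMP cluster, 6.47% for Mmp9 and 1.44% for Plau, and with peaks within 1000 bp merged it was 4.06% for Mmp9 and 13.5% for Plau. The share of all promoters with an AP-1 motif was 5.20% for TGAGTCA alone, 6.75% for bases before the start only and 8.97% when counted per gene, an alternative added after seeing the data, while the member count stayed at 5. The other 36 of 50 alternative values were counts that moved by at most 1.5 times, shares and densities that stayed within their 95% interval, equal medians, or distances within the rounding of the gene positions. No paired analysis was possible because the list has no replicate column. For the same reason leaving out a replicate could not be run, nor could a stricter threshold without a score.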
